A study of Mus musculus with 6 samples.

Results

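The genes described here are 10 structural and regulatory genes of the smooth muscle contractile apparatus, chosen by name: Acta2, Tagln, Myh11, Cnn1, Myl9, Mylk, Tpm2, Des, Lmod1 and Smtn. All 10 were found among the 23329 gene symbols of the count tables, and all 10 passed the filter on low counts. RNA had been sequenced from brain endothelial cells of adult C57BL/6 mice, 8 weeks of age, that were isolated with magnetic beads and lysed without culture. A total of 3 libraries came from wild-type (WT) mice and 3 from littermates labelled GLUT1EC-/-, in which Slc2a1, the gene of the glucose carrier GLUT1, was knocked out in endothelial cells. The labels do not name the Cre line or the deleted exons. Each library has its own animal number. The comparison asks how the transcriptome of the sorted cells differs between the genotypes. For these genes, no member differed between the genotypes by more than the spread between libraries. By their 95% intervals, 9 of the 10 lay within 38.4% below and 50.8% above the WT level. The interval of Cnn1, the remaining gene, was wider, from 0.827 to 2.75 times the WT level.

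Smooth muscle cells wrap arteries and arterioles and set their diameter. Calcium entry activates myosin light chain kinase, the phosphorylated myosin pulls on filaments of smooth muscle actin and tropomyosin, and calponin, transgelin, smoothelin and leiomodin bind or build these filaments. The transcription factor SRF with its partner myocardin binds CArG boxes near many of these genes. In the brain, smooth muscle and pericytes, which share part of this program, are together called mural cells and lie directly on the endothelium, in the same basement membrane. Mature endothelial cells are not known as a main source of Acta2, Myh11 or Cnn1. In a bulk library, fewer cells of a type and less RNA per cell cannot be told apart.

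The libraries held 31874662 to 39424384 counts. Values are given as CPM, counts scaled to a common library total with TMM factors. These factors were 1.01 to 1.05, apart from 0.884 in GLUT1EC-/- 2. Slc2a1 itself was at 3984, 4479 and 4172 CPM in WT 1 to 3 and at 3735, 5414 and 3893 CPM in GLUT1EC-/- 1 to 3, so its whole-gene count did not separate the genotypes, and directions below are between libraries as labelled. Of 14838 genes tested, 1.31% were called between the genotypes (edgeR's quasi-likelihood F test at a false discovery rate of 0.05, after Benjamini and Hochberg), and in 22.9% the ranges of both groups did not overlap. With 3 animals in each group, p-values rest on the spread among those animals, which the fit draws toward a trend over all genes.

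Contractile transcripts were present in every library. The 10 genes summed to 2733, 3263 and 3555 CPM in WT 1 to 3 and to 2606, 2964 and 3447 CPM in GLUT1EC-/- 1 to 3. The group means were 3184 ± 417 and 3006 ± 422 CPM (SD, n = 3 each), a log2 ratio of -0.08. The ranges overlapped: the highest library was WT 3 and the lowest GLUT1EC-/- 1. The largest sum was 1.36 times the smallest.

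**Figure D1:**
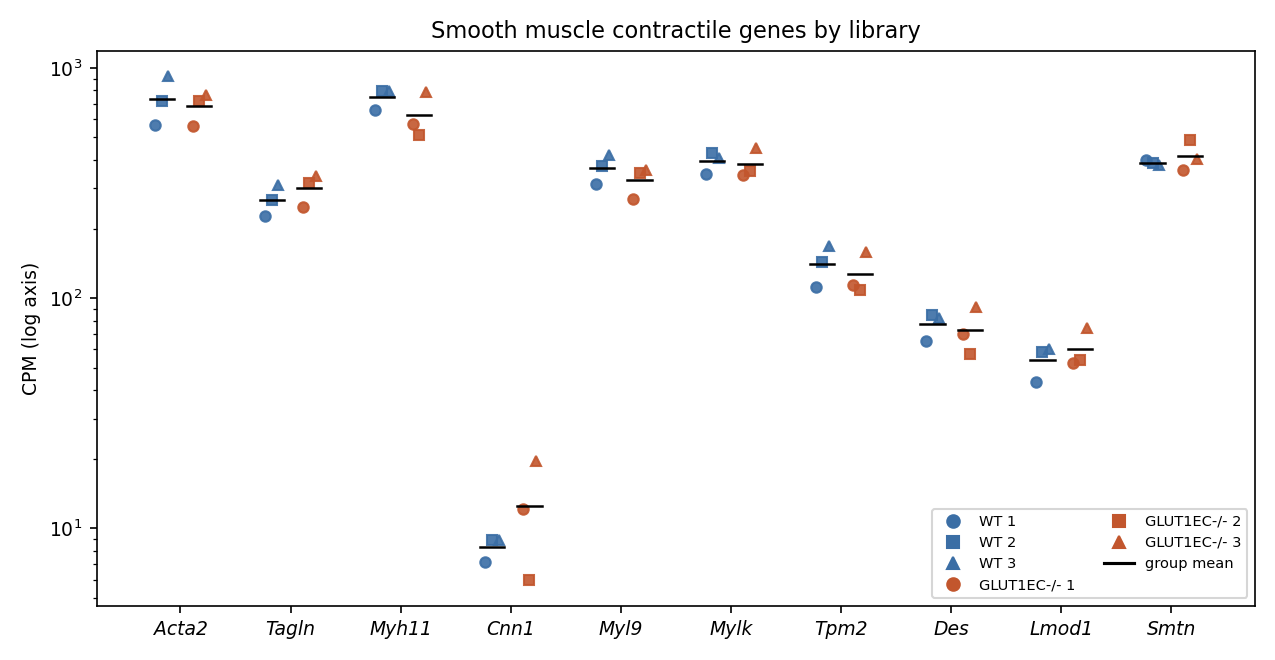
CPM on a log axis (y) of each of the 10 contractile genes (x) in every library, WT in blue and GLUT1EC-/- in orange, with the mean of 3 libraries per group as a bar. In all 10 genes the points of the groups overlap; Cnn1 is the lowest of the 10 genes and has the widest spread among the GLUT1EC-/- libraries, 5.95 to 19.6 CPM.

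Levels of different genes were compared per kilobase of annotated exon (GENCODE M21, GRCm38), over all 6 libraries. Acta2 was highest at 323 ± 61.7 CPM per kb, followed by Myl9 at 299 ± 44.0 CPM per kb (SD, n = 6). Acta2 was above Myl9 in 5 of 6 libraries and their ranges overlapped, so these neighbours did not differ beyond their spread. Tagln followed at 143 ± 21.7 CPM per kb, above Smtn and below Myl9 in all 6 libraries. Smtn, at 91.7 ± 10.05 CPM per kb, and Myh11, at 90.2 ± 16.5 CPM per kb, could not be ordered, each being higher in 3 of 6 libraries. Tpm2 came next at 46.2 ± 8.98, then Mylk at 34.6 ± 4.10, Des at 20.0 ± 3.52 and Lmod1 at 14.5 ± 2.61 CPM per kb. The ranges of Tpm2 and Mylk overlapped, as did those of Des and Lmod1, but within each library Tpm2 exceeded Mylk and Des exceeded Lmod1. Cnn1 was lowest in all 6 libraries, at 3.82 ± 1.81 CPM per kb. With the longest annotated transcript as the length, the order was the same, but the ranges of Tagln and Smtn then overlapped and those of Des and Lmod1 did not. For scale, the endothelial junction gene Cldn5 stood at 1340 ± 245 CPM per kb and the mural receptor gene Pdgfrb at 35.9 ± 4.62 CPM per kb in WT (SD, n = 3 each).

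The actin filament is represented by Acta2 and Tpm2. Acta2, alpha smooth muscle actin, lies on the minus strand of chromosome 19 (GRCm38, 34241090 to 34255590) and has 9 exons in its longest annotated transcript. Its level was 563, 718 and 923 CPM in WT 1 to 3 and 563, 721 and 763 CPM in GLUT1EC-/- 1 to 3. The lowest libraries of both groups were level and the highest was WT 3, so the groups overlapped throughout. The fitted log2 fold change was -0.11 (SE 0.21, adjusted p = 0.841 by edgeR). As a ratio of levels this is 0.928, and its 95% interval spans 0.667 to 1.29. Tpm2, the beta tropomyosin that lines the groove of the filament, lies on the minus strand of chromosome 4 (43514711 to 43523765). It was at 112, 144 and 168 CPM in the WT libraries and 114, 108 and 159 CPM in GLUT1EC-/-, again with WT 3 highest. Its log2 fold change was -0.16 (SE 0.20, adjusted p = 0.755 by edgeR).

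CArG boxes show where SRF can meet these genes, so the stretches that hold one are shown. RefSeq windows (GRCm38.p6) from 250 bases before to 50 bases after the transcript start were at hand for 8 of the 10 genes. Tagln and Myh11 had no window and were not searched. The windows were searched for CC, then 6 bases of A or T, then GG. Chosen after the first search, the same form with 1 inner base G or C, called CArG-like, was also searched for. Both forms read as the same form on the other strand. The strict form was found in 1 of the 8 genes, Myl9, and in 1.63% of all 32851 windows. With the CArG-like form there were 2 genes, Acta2 and Myl9, each with a pair of matches, against 9.98% of all windows. Capitals mark the match, and each line runs 5′ to 3′ on the strand of the gene:
Acta2 first match, chr19:34255438-34255467, minus strand: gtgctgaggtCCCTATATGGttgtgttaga
Acta2 second match, chr19:34255388-34255417, minus strand: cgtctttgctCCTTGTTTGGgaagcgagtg
Myl9 strict match, chr2:156775293-156775322, plus strand: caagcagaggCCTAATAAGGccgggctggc
Myl9 second match, chr2:156775355-156775384, plus strand: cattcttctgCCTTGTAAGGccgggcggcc
The Acta2 matches begin 84 and 34 bases before the RefSeq start, inside the first part of the longer GENCODE gene model, where an Acta2 exon is annotated. Those of Myl9 begin 161 and 99 bases before its RefSeq start, and no exon is annotated there. A match describes these letters only, and binding was not measured.

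The motor is represented by Myh11, Myl9 and Mylk. Myh11, the smooth muscle myosin heavy chain (chromosome 16, 14194535 to 14291372, minus strand, 41 exons), is the most specific of the 10 for mature smooth muscle. It was at 656, 792 and 798 CPM in WT 1 to 3 and at 572, 509 and 786 CPM in GLUT1EC-/- 1 to 3. GLUT1EC-/- 1 and 2 were below all WT libraries, whereas GLUT1EC-/- 3 was level with WT 2 and 3. The means were 749 ± 80.2 and 622 ± 145 CPM (SD, n = 3 each), with a log2 fold change of -0.27 (SE 0.19, adjusted p = 0.562 by edgeR), the lowest of the 10. Its 95% interval allows folds of 0.616 to 1.12. This value depended on single libraries: it was -0.15 without GLUT1EC-/- 2 and -0.47 without GLUT1EC-/- 3, and it did not pass in either fit (adjusted p = 0.68 and 0.19 by edgeR).

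Myl9 encodes the regulatory light chain that the kinase phosphorylates (chromosome 2, 156775420 to 156781658, plus strand). It was at 314, 373 and 419 CPM in the WT libraries and at 270.3, 351 and 359 CPM in GLUT1EC-/-. The lowest library was GLUT1EC-/- 1 and the highest WT 3, with the rest interleaved. The log2 fold change was -0.18 (SE 0.17, adjusted p = 0.673 by edgeR). Mylk, the kinase itself (chromosome 16, 34745210 to 35002420, plus strand, 32 exons in the longest transcript), kept closest to the average of the set. It stood at 347, 429 and 408 CPM in the WT libraries and at 344, 356 and 451 CPM in GLUT1EC-/-, a log2 fold change of -0.04 (SE 0.16, adjusted p = 0.923 by edgeR).

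Tagln, Cnn1, Smtn and Lmod1 bind or build the actin filament, and all 4 had a positive log2 fold change that did not pass the test. Tagln, transgelin or SM22, an early marker of the smooth muscle program (chromosome 9, 45929619 to 45936058, minus strand), was at 228, 267 and 309 CPM in the WT libraries and at 249.7, 316 and 339 CPM in GLUT1EC-/-. Its log2 fold change was 0.17 (SE 0.17, adjusted p = 0.688 by edgeR). Its exons overlap those of the coding gene Pcsk7 on the other strand. The strand setting of the counting is not given in the sources used here, so reads of both cannot be told apart. Lmod1, leiomodin, a nucleator of actin filaments in smooth muscle (chromosome 1, 135324807 to 135368065, plus strand), was at 43.3, 58.2 and 60.4 CPM in the WT libraries and 52.3, 53.8 and 74.3 CPM in GLUT1EC-/- (log2 fold change 0.16, SE 0.19, adjusted p = 0.739 by edgeR).

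Smtn, smoothelin, an actin-binding protein of contractile smooth muscle (chromosome 11, 3517523 to 3540612, minus strand), had the narrowest WT range of the 10. It was at 397, 387 and 378 CPM in WT, a coefficient of variation of 2.42%, and at 359, 486 and 404 CPM in GLUT1EC-/-, where it was 15.4%. GLUT1EC-/- 2 was the highest library for Smtn and for none of the other 9 genes. Its log2 fold change was 0.10 (SE 0.15, adjusted p = 0.772 by edgeR).

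Cnn1, basic calponin, which slows the actin-activated ATPase of myosin (chromosome 9, 22099216 to 22109630, plus strand), varied most. It had 232, 306 and 361 counts in WT 1 to 3 and 466, 199 and 724 counts in GLUT1EC-/- 1 to 3. In CPM these are 7.18, 8.94 and 8.89 against 12.2, 5.95 and 19.6. GLUT1EC-/- 1 and 3 were above all WT libraries and GLUT1EC-/- 2 was below them all. The log2 fold change was 0.59 (SE 0.38, adjusted p = 0.52 by edgeR). As a ratio of levels this is 1.51, and its 95% interval spans 0.827 to 2.75. Without GLUT1EC-/- 2 it was 0.92 and passed (adjusted p = 0.0361 by edgeR), in a fit that called 5.73% of all genes. Cnn1 was then the 1 member called. Without GLUT1EC-/- 3 it was 0.12 (adjusted p = 0.852 by edgeR), so both the size and the call rested on single libraries.

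Des, desmin, the muscle intermediate filament that also marks pericytes, lies on the plus strand of chromosome 1 (75360329 to 75368579). It was at 65.0, 85.0 and 81.7 CPM in the WT libraries and at 69.7, 57.4 and 92.1 CPM in GLUT1EC-/-. The lowest and the highest library were both of the GLUT1EC-/- group. The log2 fold change was -0.08 (SE 0.20, adjusted p = 0.874 by edgeR).

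As a list, 0 of the 10 genes were called by edgeR, where 1.31% of all tested genes were, and 0 were called by DESeq2 or limma-voom. At an unadjusted edgeR p under 0.05 the number was also 0, against 14.5% of all genes. In 0 of the 10 did the ranges of the groups stay apart, against 22.9% of all genes. Fitted values were positive for 4 genes and negative for 6, with a median log2 fold change of -0.06, beside 0.01 over all genes tested. The missing calls do not show that the levels were equal. For the 9 genes other than Cnn1, the 95% intervals reached down to a fold of 0.616 (Myh11) and up to 1.51 (Lmod1). The labels number the animals in the 200s (1 GLUT1EC-/- and 2 WT) or the 500s (2 GLUT1EC-/- and 1 WT). The median difference of the 10 genes was -0.14 within the 200s and -0.10 within the 500s on the log2 scale, with 3 and 4 genes positive.

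**Figure D2:**
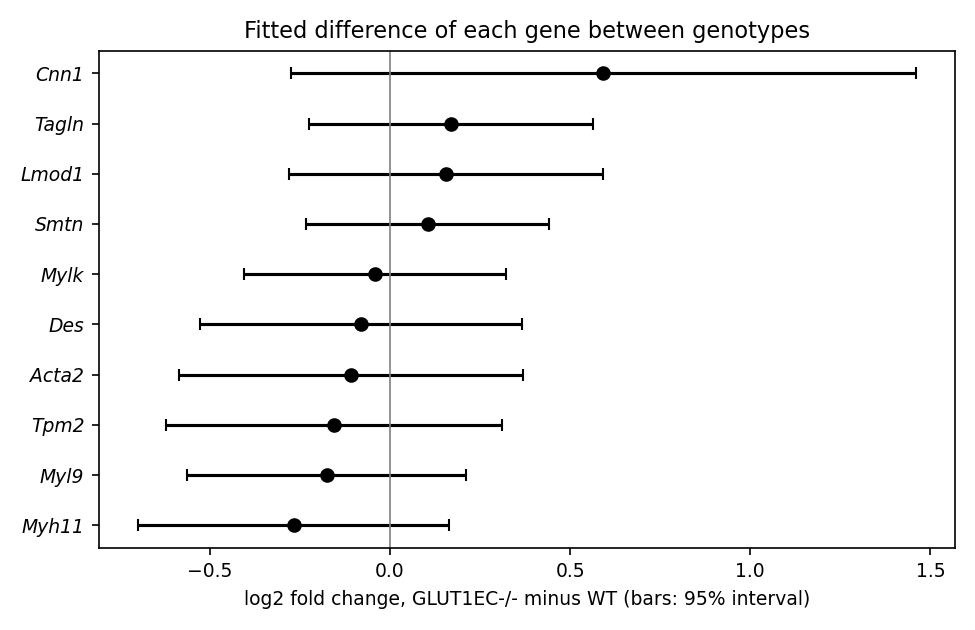
Fitted log2 fold change (x, GLUT1EC-/- minus WT) of each of the 10 genes (y), with its 95% interval as a bar (edgeR, n = 3 libraries per group). Every interval includes 0; the values run from -0.27 for Myh11 to 0.59 for Cnn1, whose interval is the widest.

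In 5 of the 6 libraries, at least 7 of the 10 genes lay on the same side of their own mean. As the log2 difference from each gene's own mean over the 6 libraries, the average of the 10 was -0.22 in WT 1, 0.07 in WT 2, 0.15 in WT 3, -0.15 in GLUT1EC-/- 1, -0.14 in GLUT1EC-/- 2 and 0.29 in GLUT1EC-/- 3. All 10 genes were above their own mean in GLUT1EC-/- 3, 8 in WT 3 and 7 in WT 2. In WT 1 none was above and in GLUT1EC-/- 1 only Cnn1 was. GLUT1EC-/- 2 was split, with Smtn, Tagln, Acta2 and Myl9 above their means and the other 6 below. Smtn went against the average in WT 2, at -0.05, in WT 3, at -0.08, and in GLUT1EC-/- 2, at 0.28. Mylk followed the average most closely, with a root mean square difference of 0.06 on the log2 scale, and Cnn1 least, with 0.43.

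**Figure D3:**
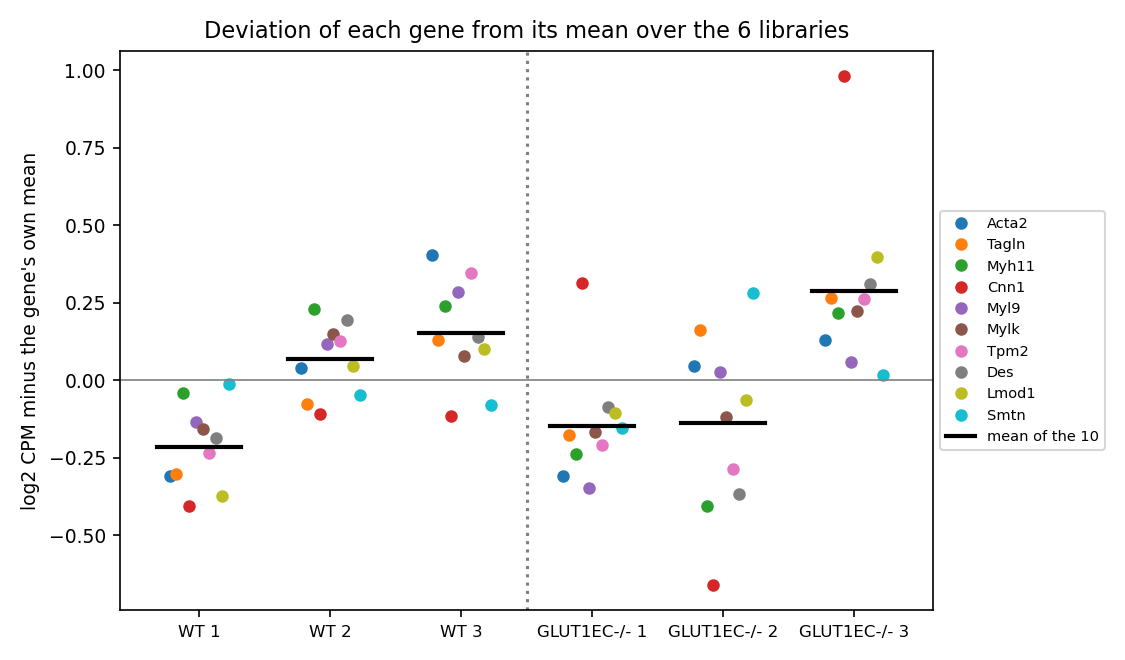
Log2 CPM minus the gene's own mean over 6 libraries (y) for the 10 genes (coloured points) in each library (x), with the average of the 10 as a black bar. The bars lie at -0.22, 0.07 and 0.15 in WT 1 to 3 and at -0.15, -0.14 and 0.29 in GLUT1EC-/- 1 to 3, so both groups hold libraries on either side of 0.

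Both libraries with the highest averages, WT 3 and GLUT1EC-/- 3, came from male mice, as read from the counts of Xist and the Y-linked gene Ddx3y, and the other 4 libraries were female. This split is not in the labels and was looked at after the values had been seen. With genotype as a term, 9 of the 10 genes were higher in the 2 male libraries by value, with a median log2 difference of 0.34, beside 0.01 over all genes. Tpm2 differed by 0.45 (SE 0.14, adjusted p = 0.701 by edgeR) and Acta2 by 0.39 (SE 0.17, adjusted p = 0.701 by edgeR). Smtn was the exception at -0.06. No member was called (adjusted p from 0.701 to 0.914 by edgeR), and 0.0329% of all genes were. In 3 genes, Acta2, Tpm2 and Lmod1, the male libraries lay above all 4 female ones, which was so for 9.49% of all genes. Both male animals carry numbers in the 500s, and the part of the number series in these values was not tested. Within the 500s, the only WT library, WT 3, was male, whereas GLUT1EC-/- 2 was female and GLUT1EC-/- 3 male. The difference between genotypes given above for the 500s therefore mixes genotype with sex.

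Since the genes share their libraries, each was also set against the other 9 within the same library, as the log2 ratio to their mean log2 CPM. This measure was chosen after the values had been seen. For Myh11 the WT libraries 1 to 3 had ratios of 2.29, 2.28 and 2.20, and GLUT1EC-/- 1 to 3 had 1.998, 1.80 and 2.02. All 3 GLUT1EC-/- libraries were below all 3 WT libraries, with a mean difference of -0.32. Tpm2 was lower by 0.17 and Lmod1 higher by 0.17, also without overlap. The ratio was thus apart in 3 of the 10 genes. Of the 14828 genes outside the set, each taken against the mean of the 10, 12.4% were apart. These shares are not a like comparison. Members vary together across libraries, so their ratios lose shared spread that ratios of outside genes keep. The ratios of the 10 also depend on each other. With Cnn1 left out of the reference, Myh11 (-0.27) and Lmod1 (0.22) stayed apart, Tpm2 overlapped and Tagln was higher without overlap (0.24). Against Acta2 alone, Myh11 overlapped between the groups, at 0.22, 0.14 and -0.21 in WT and 0.02, -0.50 and 0.04 in GLUT1EC-/-. A ratio shows unequal levels among these genes and does not tell which of them changed.

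**Figure D4:**
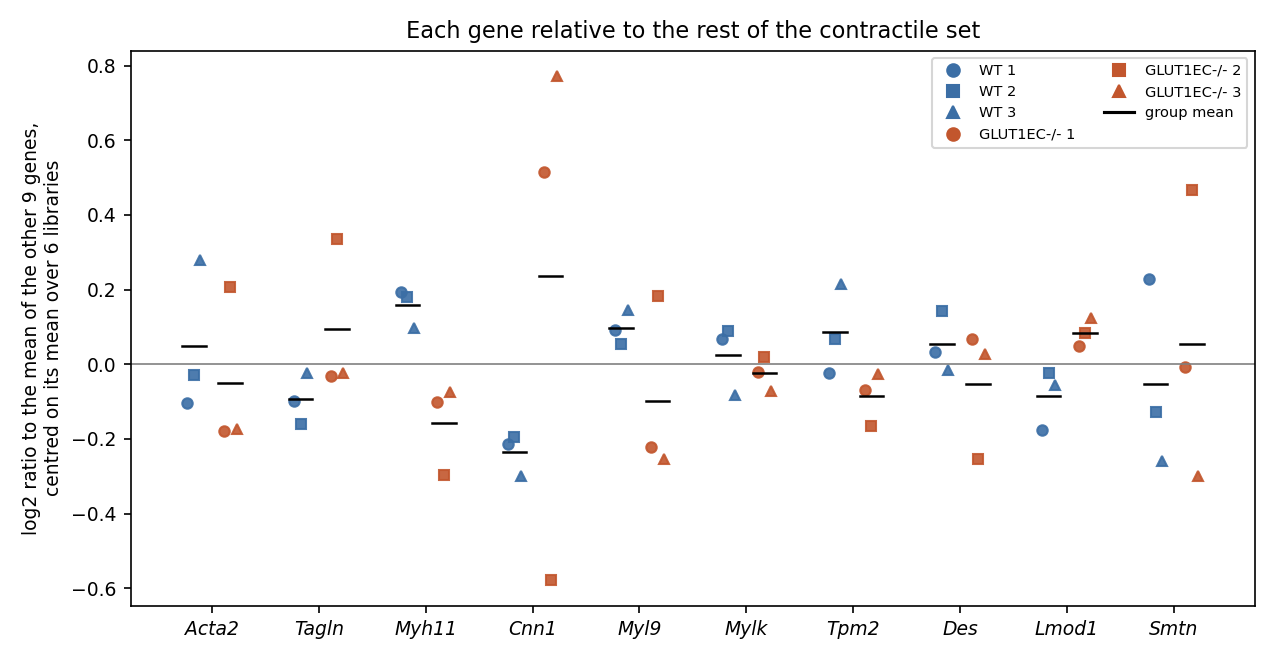
Log2 ratio of each gene (x) to the mean of the other 9 in the same library, centred on its mean over 6 libraries (y), by library, with group means as bars. Myh11 and Tpm2 lie lower and Lmod1 higher in all 3 GLUT1EC-/- libraries; Cnn1 and Smtn are spread most widely.

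Other genes of the contractile apparatus gave no call either. Of 16 further structural genes, 0 rose, 0 fell and 16 did not pass (edgeR), where 1.31% of all genes were called. An unadjusted edgeR p under 0.05 was seen in 4, against 14.5% of all genes. In 4 the groups did not overlap, a share close to the 22.9% of all genes. The 16 had a median log2 fold change of 0.11. Synpo2, synaptopodin 2, an actin-bundling Z-disc and dense body protein, came nearest to the threshold. It was at 87.6, 76.6 and 105 CPM in the WT libraries and 41.8, 21.8 and 46.8 CPM in GLUT1EC-/-, with all GLUT1EC-/- libraries lower (log2 fold change -1.29, SE 0.27, adjusted p = 0.073 by edgeR). Synm, synemin, an intermediate filament partner of desmin, went the other way by value, from 230 ± 41.2 to 340 ± 63.8 CPM (SD, n = 3 each; log2 fold change 0.56, adjusted p = 0.236 by edgeR).

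A further 20 genes control contraction, among them the myosin phosphatase and its inhibitors, calcium and potassium channels, nitric oxide and cGMP signalling, and vasoconstrictor receptors. Of these 20, 0 rose, 0 fell and 20 did not pass, where 1.31% of all genes were called. Their median log2 fold change was -0.05, with 7 positive and 13 negative values. Pln, phospholamban, the brake on the calcium pump of the sarcoplasmic reticulum, was at 29.9, 37.0 and 38.97 CPM in the WT libraries and 23.2, 10.3 and 24.8 CPM in GLUT1EC-/-. Its groups did not overlap, and it did not pass (log2 fold change -0.86, SE 0.30, adjusted p = 0.243 by edgeR).

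Of 16 regulators around SRF, myocardin, TGF-beta and Notch3, 0 rose, 0 fell and 16 did not pass, where 1.31% of all genes were called. Their median log2 fold change was 0.11. Heyl, a target of Notch signalling in mural cells, and Notch3, its mural receptor, had the smallest p-values, with log2 fold changes of 0.69 (SE 0.25, adjusted p = 0.257 by edgeR) and 0.41 (SE 0.17, adjusted p = 0.324 by edgeR). The groups of Heyl overlapped, at 28.6, 33.5 and 44.4 CPM in the WT libraries and 40.4, 75.9 and 55.6 CPM in GLUT1EC-/-. Notch3 was at 330, 383 and 286 CPM in the WT libraries and 392, 520 and 410 CPM in GLUT1EC-/-, without overlap. Srf and Myocd, named for their role, were at 176 ± 7.42 and 12.4 ± 2.17 CPM in the WT libraries and at 183 ± 22.8 and 16.2 ± 4.13 CPM in GLUT1EC-/- (SD, n = 3 each). Neither passed (adjusted p = 0.885 and 0.487 by edgeR).

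The close relatives of the 10 genes separate muscle types. Of 22 such paralogs, 17 passed the filter and 0 were called, where 1.31% of all genes were. Their median log2 fold change was -0.01. Named for their role after their values were seen, transcripts of skeletal and cardiac actin were at or near 0: Acta1 was at 0.789 to 1.57 CPM, and Actc1 at 0.402 CPM in WT 1 and 0 in the other 5 libraries. Lmod2 and Smtnl1 had no count in any library. The 8 striated muscle markers summed to 7.77 to 10.5 CPM. Of these, 4 passed the filter on low counts, among them Tnni3 at 2.17 to 5.35 CPM and Ttn at 1.80 to 4.41 CPM. Myh1 was at 0. Actg2, the actin of visceral smooth muscle, was at 0.464 to 2.06 CPM. The cytoplasmic actin gene Actb, named likewise, was at 1499 ± 95.8 CPM in the WT libraries and 1448 ± 81.2 CPM in GLUT1EC-/- (SD, n = 3 each). The paralogs with the smallest p-values were Tpm3, a widely expressed tropomyosin (log2 fold change 0.36, adjusted p = 0.404 by edgeR), and Vim, vimentin (0.42, adjusted p = 0.407 by edgeR).

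The 12 endothelial markers summed to 16976 to 18349 CPM in the WT libraries and 16578 to 19468 CPM in GLUT1EC-/-. Of the 12, 0 were called, where 1.31% of all genes were. The sums hide shifts in both directions. In 2 markers all GLUT1EC-/- libraries were higher and in 3 all were lower, where 22.9% of all genes did not overlap. Pericyte markers were present as well, with 10 of 10 tested and 0 called, where 1.31% of all genes were. Their median log2 fold change was 0.12. They summed to 838 to 993 CPM in the WT libraries and 919 to 1142 CPM in GLUT1EC-/-. In 2 of them, Abcc9 (log2 fold change 0.61) and Atp13a5 (-0.59), the unadjusted edgeR p was under 0.05, against 14.5% of all genes. Atp13a5 was lower in GLUT1EC-/- without overlap. GLUT1EC-/- 2, in which Myh11, Cnn1, Tpm2 and Des were lowest, had the highest pericyte sum, but single pericyte markers were divided there. It was the highest library for 3 of the 10, Pdgfrb, Kcnj8 and Abcc9, and the lowest for 3, Cspg4, Higd1b and Atp13a5. Of the 10 fibroblast markers, 1 rose (Dcn, adjusted p = 0.00997 by edgeR) and 0 fell, where 1.31% of all genes were called. An unadjusted edgeR p under 0.05 was seen in 9, against 14.5% of all genes. Col15a1 was the exception and was lower by value (log2 fold change -0.56, adjusted p = 0.574 by edgeR). The list was chosen with earlier results of these data known. Its markers share their libraries, so the 9 are not independent results. The sums of the 10 were 315, 385 and 682 CPM in the WT libraries and 986, 1840 and 980 CPM in GLUT1EC-/-. None of these 10 markers was at 0, but Dpt was near it in the WT libraries, at 0.155, 0.117 and 0.0493 CPM. Apod made up most of these sums. Without it, a step added after the values were seen, they were 110.0, 127 and 120.1 CPM in WT 1 to 3, and GLUT1EC-/- 1 to 3 had 215, 167 and 401 CPM. GLUT1EC-/- 2 then passed from the highest to the lowest library of its group, and the groups still did not overlap. The part of fibroblast RNA in the values of the contractile genes was not tested.

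**Figure D5:**
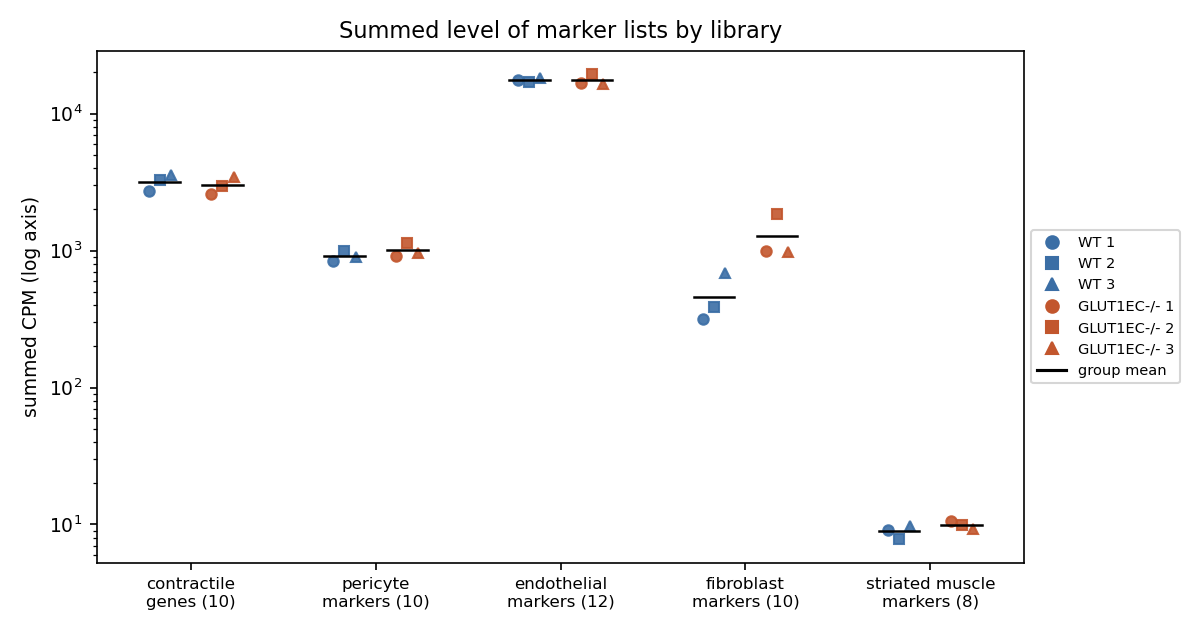
Summed CPM on a log axis (y) of the 10 contractile genes and of 4 marker lists (x) in each library, WT in blue and GLUT1EC-/- in orange, with group means as bars. The contractile, pericyte and endothelial sums overlap between the groups, the fibroblast sums run from 315 to 682 CPM in WT and from 980 to 1840 CPM in GLUT1EC-/-, and the striated muscle sums stay between 7.77 and 10.5 CPM.

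Of 12339 genes outside the set with a mean of at least 1 CPM, 5 were taken whose pattern over the 6 libraries was nearest to the average of the 10, by the root mean square difference of centred log2 CPM. They were Plekhg3 (0.06), Postn (0.06), Fermt3 (0.07), Zfp579 (0.07) and Itpk1 (0.07). Plekhg3 was at 32.9, 40.6 and 40.6 CPM in the WT libraries and 31.5, 31.2 and 44.9 CPM in GLUT1EC-/-. Its distance was close to that of Mylk, but Mylk is itself part of the average, so the distances are not alike. With 6 libraries and this many genes, a near pattern only describes these libraries.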

How the data were processed

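RNA sequencing counts of 6 libraries, 3 WT and 3 GLUT1EC-/- by the genotype label, were analysed. Libraries were stranded mRNA read as single ends, per the labels' protocols. The authors deposited raw counts by gene symbol, made with STAR and featureCounts on GRCm38, per the submitters' processing notes; versions, annotation and strand setting are not given in the sources used here.

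All 6 libraries entered 1 fit in edgeR 4.0.16 (R 4.3.3), whose model held the genotype alone. Genes were kept by filterByExpr with a count of 10 and a total of 15 as minimum, scaled by TMM, and tested with the robust quasi-likelihood F test. P-values were adjusted over 14838 genes after Benjamini and Hochberg. The script was tested on simulated data. CPM use the TMM factors, and ratios and deviations use log2(CPM + 0.5). Standard errors are the log2 fold change over the square root of F. Gene lengths and positions come from GENCODE M21, and start windows from RefSeq. Named genes are the 10 members, Slc2a1, the 2 genes with the smallest p of each of 4 wider lists (none was called; 1 of these genes is not reported here), and the 5 most similar patterns (predicted genes skipped). Current symbols were matched through RefSeq synonyms (Mrtfa, Mrtfb, Gucy1a1 and Gucy1b1 by older names). Members and lists were chosen with earlier results of these data known. Alternatives were RLE, upper-quartile and no scaling, DESeq2 1.42.0, limma-voom (limma 3.58.1), no filter, at least 1 CPM in 3 libraries, number series or sex as a term, and each library left out in turn. Reads were not collapsed by molecular identifiers, so counting error is not an error over molecules.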

Additional observations from a re-analysis of the deposited data

How the results depend on the processing

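The number of members called was 0 in all 9 alternatives that kept every library, and 0 to 1 when single libraries were left out, with Cnn1 called without GLUT1EC-/- 2. The number of all genes called, 194 as reported, was 879 with DESeq2, 14 with the animal number series as a term and 112 with sex as a term, and ran from 0 to 862 over the 6 fits without a library; with a library left out, 5 remain and a group has 2. The median log2 fold change of the members was -0.18 to 0.04 without single libraries, and the log2 ratio of the summed level -0.19 to 0.01, each shift being smaller than the spread between libraries. Signs of small values turned when a library was left out: the log2 fold change ran from -0.27 to 0.090 for Acta2, from -0.17 to 0.033 for Mylk, from -0.28 to 0.060 for Des, from -0.025 to 0.25 for Lmod1 and from -0.027 to 0.20 for Smtn. Signs held for Tagln (0.057 to 0.29), Myh11 (-0.47 to -0.15), Myl9 (-0.29 to -0.056) and Tpm2 (-0.35 to -0.014). For Cnn1 it ran from 0.12 (adjusted p = 0.852 by edgeR) without GLUT1EC-/- 3 to 0.92 without GLUT1EC-/- 2. Scaling turned no sign. Cnn1, with 199 to 724 counts per library, has the least depth of the 10 genes.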
